A study of Mus musculus with 2 samples.

Results

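Neurons carrying the peptides and receptors of the suprachiasmatic nucleus turned up in single-cell RNA of dissected mouse arcuate nucleus with median eminence. They were chosen from raw counts of unique molecular identifiers (UMIs), each standing for 1 captured RNA molecule. A cell had to show 300 or more genes, no more than 20% of its UMIs from mitochondrial genes, a UMI of at least 2 of 7 neuronal genes (Snap25, Syt1, Stmn2, Stmn3, Elavl4, Tubb3, Snhg11), and a UMI of at least 2 of Vip, Nms, Prok2, Rgs16, Vipr2, Prokr2 and Rasl11b. This gave 151 clock neurons of 1631 neurons and 4600 cell barcodes, 100 in the WT library and 51 in the Irx3/5dHet library. The other 1480 neurons had 0 or 1 of the 7 clock genes and are called other neurons. Because the choice used measured values, the levels of the 7 genes are a description and support nothing.

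Both libraries came from CD-1 mice aged 7 to 8 weeks, with live cells sorted before Drop-seq, a droplet method in which each bead tags the RNA of the cell it meets. WT pooled 7 wild type mice, and Irx3/5dHet pooled 5 mice with the genotype label Irx3/5+/-, heterozygous for the Iroquois transcription factors Irx3 and Irx5. Each genotype was 1 pool, so genotype, dissection, dissociation and library cannot be told apart, and no p-value is given. Each interval is an exact 95% interval that covers counting error only, not the spread between cells or mice. Pairs of values give WT first.

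The suprachiasmatic nucleus lies above the optic chiasm, in front of the arcuate nucleus, and is the master circadian pacemaker of mammals. In each cell, CLOCK and BMAL1 (Arntl) switch on the Per and Cry repressors through E-box sequences, and REV-ERB and ROR receptors set the level of BMAL1 in an interlocking loop. The cells keep one another in time through peptides: VIP from the ventral core acts on VPAC2 (Vipr2), while vasopressin is made largely by other cells. Prokineticin 2 and neuromedin S are further peptides of the nucleus. Nearly all use GABA as their fast transmitter.

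Clock neurons had a median of 1869.5 and 1782 UMIs, other neurons of 1801 and 1934. Single clock neurons ranged from 375 to 17968 and from 425 to 9009 UMIs. Together they held 261941 and 125264 UMIs. The libraries shared 3 barcodes and none of them was a clock neuron. At least 2 genes of any list of other cell types were found in 12 of 100 and 5 of 51 clock neurons, against 243 of 811 and 119 of 669 other neurons. Without those cells the ratio of clock neuron shares given at the end was 0.575 (0.394 to 0.831), and 251 genes were called higher and 469 lower in clock neurons, against 277 and 470 with them. Irx3 and Irx5 together had 0 and 1 UMI in clock neurons and 7 and 0 UMIs in other neurons, too few to check the genotype labels in these cells.

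The 7 genes came together far more often in neurons than outside them. Of cells outside the neuronal gate, 6 of 1494 and 4 of 764 had at least 2 of the genes (0.402% and 0.524%). None of 249 and 120 oligodendrocytes did, which allows shares of up to 1.47% and 3.03%, at median depths of 1281 and 1112.5 UMIs against 1803 and 1929.5 in neurons. A single gene was found in 16 and 3 oligodendrocytes (6.43% and 2.50%) and in 119 and 78 neurons (13.1% and 10.8%).

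Each of the 7 genes was also looked at in neurons chosen by the other 6 alone, so that it had no part in the choice of cells. The 7 genes themselves were listed with earlier results of these data known, so these shares are a description. All 7 were then found in a larger share of chosen neurons than of the rest, in both libraries. Rgs16, an inhibitor of G protein signalling with a strong daily rhythm in this nucleus, was found in 76.4% (64.9 to 85.6) of 72 WT neurons with 2 of the other 6 genes, against 10.1% of the rest, and in 53.6% (33.9 to 72.5) of 28 Irx3/5dHet neurons against 8.24%. Nms was found in 40.6% against 0.736% in WT and in 28.3% against 0.890% in Irx3/5dHet. Rasl11b, a small RAS-like GTPase gene, was found in 50.5% against 3.30% and in 32.5% against 3.97%. Vip was found in 26.3% against 1.35% in WT and in 12.5% against 1.64% in Irx3/5dHet, and Prok2 in 31.9% against 1.10% and in 9 of 45 against 1.48%. Of the receptor genes, Vipr2 was found in 20.5% against 4.23% in WT and in 11.9% against 2.80% in Irx3/5dHet, and Prokr2 in 16.5% against 3.39% and in 15.9% against 1.78%. The median depth of neurons chosen without Rgs16 was 1780 and 2120.5 UMIs against 1805 and 1924 in the rest.

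**Figure D1:**
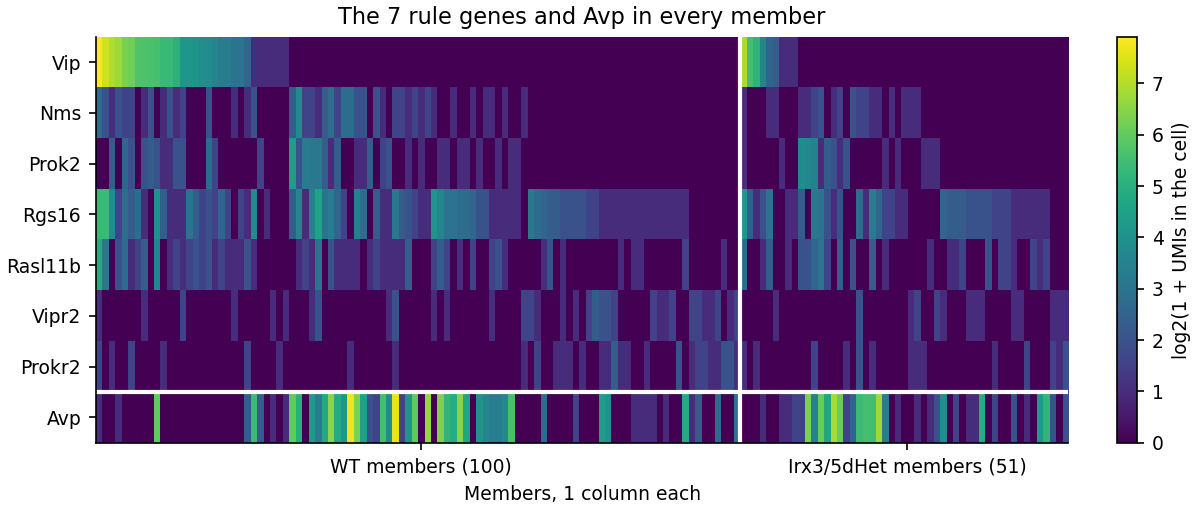
Each column is 1 of the 100 WT or 51 Irx3/5dHet clock neurons, sorted by Vip and then by Nms plus Prok2, and each row is a gene, with colour giving log2(1 + UMIs in the cell). Vip fills 30 and 9 columns, and Avp, which was not used to choose the cells, is mostly found in the columns with Nms or Prok2 and no Vip.

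Among the peptides used by the rule, Vip was the most abundant and the most uneven. Vip was found in 30 WT clock neurons with 1 to 239 UMIs per positive cell (median 16.5) and in 9 Irx3/5dHet clock neurons with 1 to 118 UMIs (median 5). Its summed level was 4677 and 1772 CPM (a gene's UMIs per 1000000 UMIs of the same cells), and 1 cell held 53.2% of the Irx3/5dHet Vip UMIs. Clock neurons held 99.5% of all Vip UMIs of WT neurons, while other Irx3/5dHet neurons still held 54 Vip UMIs, 24 of them in 1 cell. Nms, neuromedin S, was found in 43 and 18 clock neurons at 416 and 208 CPM, and Prok2, a secreted signal of circadian output, in 36 and 15 at 450.5 and 431 CPM. The peptide genes thus marked 67 and 31 clock neurons, and the rest qualified through receptors, Rgs16 and Rasl11b.

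The receptors gave few UMIs per cell. Vipr2, the VIP receptor, was found in 34 and 14 clock neurons with at most 4 and 3 UMIs, and Prokr2, the prokineticin receptor, in 29 and 14 with at most 4 and 3 UMIs. Rgs16 was the most widespread of the 7 genes, in 83 and 38 clock neurons, and Rasl11b was found in 54 and 24. Rgs16 was also present in 50 of 54 and 21 of 24 clock neurons with Rasl11b, but the rule itself asks for a second gene, and another 20 WT and 16 Irx3/5dHet neurons had Rasl11b as their only rule gene. Peptides overlapped in part: 23 of 43 Nms cells in WT and 7 of 18 in Irx3/5dHet also had Prok2, and 16 of 30 and 3 of 9 Vip cells also had Nms. Among Vip cells, 6 of 30 and 1 of 9 had a UMI of Vipr2. The 151 cells showed 46 different combinations, the largest being Rgs16 with Rasl11b in 5 and 9 cells and Rgs16 with Vipr2 in 8 and 5. With so few UMIs, a missing gene in a cell is not evidence that the cell lacks it.

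Transcription factors of the nucleus outside the rule were higher in clock neurons in both libraries. Throughout, a gene was called when it had at least 10 UMIs over both kinds of neuron in each library and differed at least 2-fold the same way in both. Of 12656 genes outside the rule, 2.19% were called higher and 3.71% lower in clock neurons, and the median log2 ratio over all genes was -0.05 and 0.05. Of 8 suprachiasmatic transcription factors, 6 were called higher (Lhx1, Six6, Six3, Rorb, Rora, Id4), with a list median of 1.82 and 2.05. The lists were chosen with earlier results of these data known, so these counts are a description.

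Rora, an orphan nuclear receptor that drives Bmal1, stood at 588 CPM (154 UMIs) in WT clock neurons and 583 CPM (73 UMIs) in Irx3/5dHet ones, against 56.9 and 52.5 CPM in other neurons. Its log2 ratio was 3.37 (3.01 to 3.73) and 3.47 (3.02 to 3.92). Rorb, the related receptor, had ratios of 1.88 and 2.84. Lhx1, a LIM homeodomain factor needed for cells of this nucleus to stay coupled, stood at 248 and 208 CPM against 59.4 and 44.0, with ratios of 2.07 (1.60 to 2.51) and 2.26 (1.54 to 2.89). Six3 and Six6, homeobox factors of the ventral forebrain and eye, had ratios of 2.04 and 1.97 for Six3 and 1.77 and 2.14 for Six6. Zfhx3, a zinc finger homeobox gene with circadian roles, was 0.77 (0.31 to 1.19) and 1.81 (1.29 to 2.28) and so passed 2-fold in 1 library only.

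Several secreted and synaptic genes known from the nucleus were also higher in clock neurons, but its peptide genes outside the rule were mixed. C1ql3, a secreted synaptic organiser, stood at 328 and 247 CPM against 23.7 and 28.1 CPM in other neurons, with log2 ratios of 3.79 (3.27 to 4.34) and 3.15 (2.45 to 3.80). Syt10, a synaptotagmin widely used to mark this nucleus, had ratios of 3.19 (2.77 to 3.61) and 2.09 (1.49 to 2.63). Rasd1, a dexamethasone-induced RAS gene tied to clock resetting, had ratios of 1.44 and 1.88. Calb2 (calretinin) did not reach 2-fold, at 0.22 and 0.43. Of 7 such genes compared, 4 were called higher (Syt10, C1ql3, Rasd1, Avpr1a) and none lower. Of 8 peptide genes of the nucleus outside the rule, Avp and Nmu were called higher and Tac1 lower, with only 6 and 3 Nmu UMIs in clock neurons. The median log2 ratio of these 8 was 0.32 and -0.13, beside -0.05 and 0.05 over all genes.

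At least 2 of 8 such genes (Lhx1, Six6, Six3, Rorb, Rora, Zfhx3, Syt10, C1ql3) were found in 85.0% (76.5 to 91.4) and 88.2% (76.1 to 95.6) of clock neurons, against 22.1% and 25.3% of other neurons and 3 of 249 and 0 of 120 oligodendrocytes. Most clock neurons thus had at least 2 of these genes outside the rule, while 5 clock neurons in each library had none of the 8. The 8 were chosen with earlier results of these data known, so this is a description. Of clock neurons with at least 10 UMIs of arcuate peptide genes, 2 of 3 in WT and 1 of 3 in Irx3/5dHet also had them. So did 27 of 93 WT and 60 of 182 Irx3/5dHet other neurons with as many such UMIs. With every cell thinned to 1000 UMIs, Rora was found in 34.6% of 78 WT and 41.5% of 41 Irx3/5dHet clock neurons, against 4.89% and 4.79% of other neurons and 5.16% and 2.67% of oligodendrocytes. Six3 was found in 44.9% and 39.0% of thinned clock neurons against 9.77% and 9.17%. Before thinning, Rora was found in 57.0% and 54.9% of clock neurons and Six3 in 61.0% and 52.9%.

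**Figure D2:**
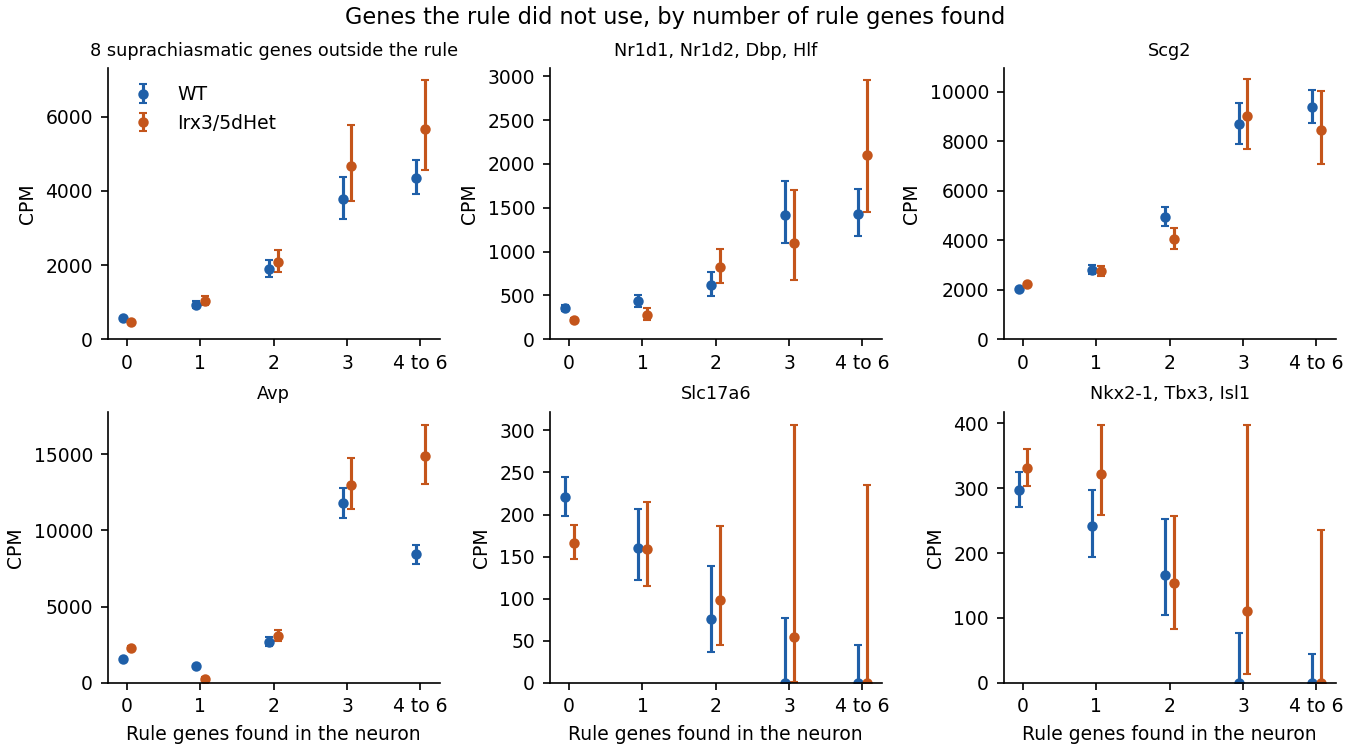
Summed level in UMIs per 1000000 (CPM) with exact 95% counting intervals, for WT (blue) and Irx3/5dHet (orange) neurons with 0, 1, 2, 3 or 4 to 6 of the 7 rule genes. The 8 suprachiasmatic genes outside the rule go from 565 and 469 CPM at 0 genes to 4358 and 5670 CPM at 4 to 6. Slc17a6 and the factors Nkx2-1, Tbx3 and Isl1 have 0 UMIs at 4 to 6. In the 8 Irx3/5dHet cells there, 0 Slc17a6 UMIs allow up to 235 CPM, above the 166 CPM at 0 genes.

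The threshold of 2 genes cut through a continuous range. The summed level of those 8 outside genes was 565 CPM in WT neurons with none of the rule genes, 932 with exactly 1, 1892 with 2, 3780 with 3 and 4358 with 4 to 6. In Irx3/5dHet the same steps gave 469, 1027, 2090, 4679 and 5670 CPM. Median depth over the same steps was 1718, 2210, 2625, 1310 and 1954.5 UMIs per cell in WT. In Irx3/5dHet it was 1790, 2707, 1973.5, 1543 and 2120.5. The part of depth in these levels was not tested. Just outside the rule, the 119 WT and 78 Irx3/5dHet neurons with 1 gene had at least 2 of the outside genes in 47.1% and 55.1% of cells. Just inside it, the 41 and 32 clock neurons with exactly 2 genes had them in 73.2% and 84.4%, and those with at least 3 in 93.2% and 94.7%.

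The clock itself was read at low level, and its parts were uneven. Per, Cry, Clock and Bmal1 RNA was sparse in both kinds of neuron, while the REV-ERB and PAR bZIP branches carried enough UMIs to compare. Nr1d1, which encodes the repressor REV-ERBα, stood at 317 and 224 CPM in clock neurons against 51.4 and 22.8 CPM in other neurons, with log2 ratios of 2.63 (2.19 to 3.06) and 3.30 (2.55 to 4.01). Nr1d2 (REV-ERBβ) had ratios of 0.92 (0.23 to 1.51) and 2.15 (1.04 to 3.06). Dbp, a clock output factor switched on through E-boxes, stood at 290 and 343 CPM against 85.1 and 79.0, with ratios of 1.78 and 2.13. Hlf, its relative, had ratios of 0.81 (0.44 to 1.15) and 1.82 (1.31 to 2.29).

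Of 10 clock repressor genes compared, 3 were called higher (Per2, Nr1d1, Bhlhe41) and none lower, beside the 2.19% of all genes called higher. Of the 4 activators compared, Rora and Rorb were called and Clock and Arntl were not. Per1 had only 8 and 5 UMIs in clock neurons, with ratios of 0.74 (-0.64 to 1.80) and 1.49 (-0.35 to 2.76). Per2 had 6 and 5 UMIs, with ratios of 1.34 (-0.35 to 2.64) and 2.73 (0.79 to 4.26). Cry1 gave -0.39 and 0.93 and Arntl 1.09 and -0.11, all with intervals that include 0. Of 8 output and kinase genes, Dbp alone was called. A difference in Per1, Cry1 and Arntl was not detectable at this depth. The labels give no time of day for tissue collection, so no phase can be read.

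**Figure D3:**
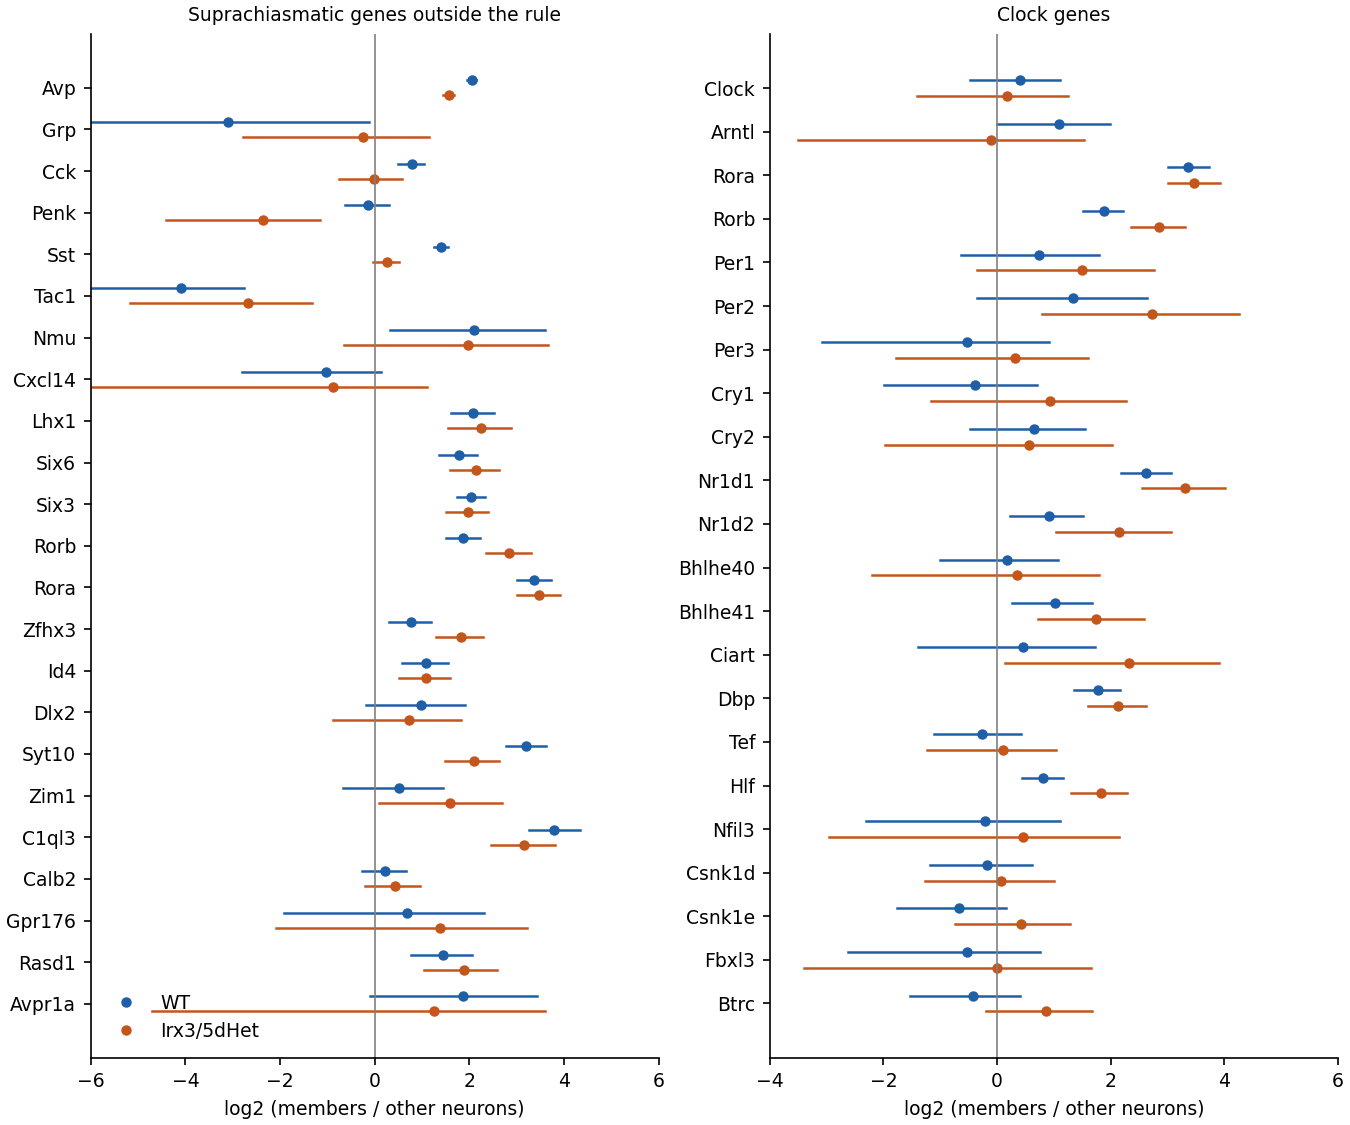
Points are the log2 ratio of summed level in clock neurons over other neurons and lines are exact 95% counting intervals (cut at the axis limits), for WT (blue) and Irx3/5dHet (orange). Rora, C1ql3, Lhx1, Six3 and Nr1d1 lie to the right of 0 in both libraries, while Clock, Tef and Csnk1d straddle it.

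Most clock neurons carried a GABA gene, though none of the 4 GABA genes was called higher. A GABA gene without any vesicular glutamate transporter was found in 73.0% (63.2 to 81.4) and 74.5% (60.4 to 85.7) of them, against 37.5% and 47.2% of other neurons and 2.01% and 1.67% of oligodendrocytes. Slc32a1, the vesicular GABA transporter, had log2 ratios of 1.13 and 0.88, Gad1 of 0.82 and 0.66, and Gad2 of 0.53 and 0.64. Slc17a6 (VGLUT2), the hypothalamic glutamate transporter, was lower at -2.39 (-3.53 to -1.56) and -0.98 (-2.13 to -0.15). It had 0 UMIs in the 59 WT clock neurons with at least 3 rule genes and 1 UMI in the 19 Irx3/5dHet ones. Of these cells, 46 of 59 and 12 of 19 had a GABA gene alone, and 13 and 6 had neither kind of gene. The summed level of Gad1, Gad2 and Slc32a1 in cells with 4 to 6 rule genes was 1672 CPM in WT against 586 in neurons with none. In Irx3/5dHet it was 828 (441 to 1416) against 723 CPM.

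Genes of the secretory pathway were split. Scg2, a secretory granule protein, was found in 97 and 48 clock neurons at 7021 and 5325 CPM against 2163 and 2290 in other neurons, with log2 ratios of 1.70 (1.62 to 1.78) and 1.22 (1.10 to 1.34). Vgf, a granule protein cleaved into neuropeptides, had ratios of 2.53 (2.24 to 2.82) and 2.84 (2.54 to 3.14). These were the 2 called of 11 genes for peptide processing. Chga, another granule protein, had a lower summed level, at -0.90 and -0.77, but was found in more cells: at 1000 UMIs per cell, in 41.0% of WT clock neurons against 26.0% of other neurons, and in 43.9% against 31.3% in Irx3/5dHet. The proprotein convertase Pcsk2 stood at 0.78 and 0.86. The imprinted genes Dlk1, a Notch ligand relative, and Nnat, a proteolipid of the endoplasmic reticulum, were called higher, at 1.99 and 2.05 for Dlk1 and 1.22 and 1.89 for Nnat. They were 2 of 14 imprinted genes compared, and Meg3, at the same imprinted locus as Dlk1, was only 0.15 and 0.57.

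Vasopressin, encoded by Avp, was not part of the rule and divided the clock neurons. Avp was found in 53 and 34 of them at 6150 and 6003 CPM, against 1487 and 2025 CPM in other neurons, where a single Irx3/5dHet cell held 1892 of 3818 UMIs. The log2 ratio was 2.05 and 1.57. Within the clock neurons, Avp was lower in cells with Vip than in cells with Nms or Prok2 and no Vip. The 37 WT clock neurons with Nms or Prok2 and no Vip held 1401 Avp UMIs (18661 CPM), found in 31 cells, and the 30 with Vip held 116 UMIs (1226 CPM), found in 8 cells, 62 of them in 1 cell. In Irx3/5dHet the 22 cells with Nms or Prok2 and no Vip held 634 UMIs (12093 CPM) in 18 cells, against 5 UMIs (236 CPM) in 4 of the 9 cells with Vip. The log2 ratio of Vip cells over the others was -3.92 (-4.21 to -3.65) and -5.54 (-7.31 to -4.45).

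Over the 1613 genes compared between those groups in both libraries, 1.86% were at least 2-fold higher and 1.86% lower in Vip cells in both. The genes below were chosen after their values were seen, from those whose intervals also excluded equality in both libraries. Lower in Vip cells beside Avp were Rorb, at -2.54 and -1.71, Vgf at -2.31 and -1.34, Nnat at -1.25 and -2.59, and the noncoding RNA Meg3 at -1.28 and -1.17. Rorb was found in 26 of 37 WT cells with Nms or Prok2 and no Vip, and in 9 of 30 with Vip. Higher in Vip cells were the activity-regulated genes Gadd45g, at 2.32 and 3.47, and Npas4, at 1.18 and 3.25, and the granule gene Chga at 1.87 and 1.81. Single cells carried much of these in WT Vip cells. Of 135 Gadd45g UMIs 70 lay in 1 cell, and of 172 Chga UMIs 97 lay in 1 cell. A single Vip UMI was enough to count as a Vip cell. The WT Vip cells, with 94636 UMIs in all, included cells of 17968 and 14528 UMIs with 1 Vip UMI each. The former held 66 Agrp and 105 Npy UMIs and the latter 245 Cartpt UMIs. Irx3/5dHet Vip cells, with 21193 UMIs in all, included a cell of 6550 UMIs with 1 Vip UMI and 106 Sst UMIs. The part of such cells in these ratios was not tested. Calb2, a marker of part of the VIP cells, had 41 UMIs in 11 of the 30 WT Vip cells and 0 in the 37 others. In Irx3/5dHet, Calb2 had 9 UMIs in 6 of the 9 Vip cells and 15 UMIs in 2 of the 22 others.

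The clock neurons without Vip, Nms or Prok2 (33 and 20 cells) shared some outside genes and not others. Six6 stood at 477 and 329 CPM in them, against 177 and 340 CPM in cells with a peptide. C1ql3 was 32.5 and 96.8 CPM against 489 and 353, and Lhx1 119 and 77.5 CPM against 318 and 299. Avp was 1019 and 2188 CPM against 8939 and 8680, and Scg2 7210 and 4318 CPM against 6918 and 6031. C1ql3 and Avp were thus lower without a peptide in both libraries. Lhx1 was lower without a peptide in WT. In Irx3/5dHet its intervals overlapped (21.1 to 198 against 187 to 452 CPM), from 4 UMIs in 3 cells without a peptide. Six6 was higher without a peptide in WT (347 to 640 against 119 to 252 CPM), while its intervals overlapped in Irx3/5dHet, and Scg2 was lower without a peptide in Irx3/5dHet only. Their median depth was 2990 and 2045 UMIs against 1670 and 1740 in cells with a peptide, and its part in this was not tested.

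Promoters were searched because the clock drives output genes through the E-box (CACGTG) and cyclic AMP through the CRE (TGACGTCA). Both motifs read the same on the 2 strands and neither holds the other. In the 250 bases before the RefSeq start site (GRCm38.p6), 6.02% of 32851 windows held an E-box and 1.55% a CRE. Of 27 rule, outside and clock genes looked up, 25 were matched and 5 had an E-box: Prok2, Avp, Per1, Ciart and Bhlhe41. Prok2 was the 1 rule gene among them, and Scg2 and Hlf had a CRE. A match is a run of letters and no evidence of binding. The windows of Prok2 (chr6:99726393-99726642, minus strand) and Avp (chr2:130582589-130582838, minus strand) are shown because these are the peptide genes with a match. They read 5′ to 3′ on the gene's strand, ending at the base before the start site, with the E-box in capitals, which begins 135 bases before the start in Prok2 and 139 in Avp.
Prok2: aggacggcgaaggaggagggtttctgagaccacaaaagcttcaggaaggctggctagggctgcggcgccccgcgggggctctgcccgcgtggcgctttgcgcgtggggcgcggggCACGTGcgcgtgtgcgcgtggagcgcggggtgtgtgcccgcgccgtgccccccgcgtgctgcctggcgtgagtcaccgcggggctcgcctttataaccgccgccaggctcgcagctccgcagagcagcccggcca
Avp: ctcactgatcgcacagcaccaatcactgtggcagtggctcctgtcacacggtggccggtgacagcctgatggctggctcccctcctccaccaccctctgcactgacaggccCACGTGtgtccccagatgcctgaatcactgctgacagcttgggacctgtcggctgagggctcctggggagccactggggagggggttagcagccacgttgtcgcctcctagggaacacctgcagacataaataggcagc

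Of all genes outside the rule, 1.37% were higher and 0.98% lower with intervals excluding equality in both libraries, and 12 in each direction were named by a rule of size. Higher in clock neurons were Rora, C1ql3, Nr1d1 and Vgf above, and Creb3l1, Egr4, Zic1, Mcub, Cdc14a, Pkib, Tesc and Plcd4. Creb3l1, a CREB-family factor of the endoplasmic reticulum that acts on vasopressin transcription, stood at 64.9 and 87.8 CPM against 3.53 and 7.43, with log2 ratios of 4.15 (2.86 to 5.72) and 3.58 (2.28 to 4.81). Zic1, a zinc finger factor, was found in 36 and 14 clock neurons with ratios of 3.16 and 2.82. Pkib, an inhibitor of cyclic AMP-dependent kinase, had ratios of 2.66 and 2.36, and Plcd4, a phospholipase C, 2.28 and 2.56. Egr4, an immediate early gene, had ratios of 3.03 and 3.66 from 13 and 10 UMIs. In Irx3/5dHet 1 cell held 5 of the 10, and the ratio there turned to -0.41 when Rgs16 and Rasl11b were left out of the rule. Among cyclic AMP genes, through which VPAC2 signals, Adcy3 (1.68 and 1.82) and Crem (1.07 and 1.48) were the 2 of 18 called higher and Pde1c, with 0 UMIs in clock neurons, the 1 called lower. Of 12 other genes of the RGS family, Rgs12 was called higher (1.52 and 1.44) and Rgs4 lower (-1.50 and -1.99). The Rgs12 interval included 0 in at least 1 library. Over all genes, 2.19% were called higher and 3.71% lower, and 12 genes are too few to tell these counts from those shares.

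Genes lower in clock neurons included several arcuate peptide genes. Gal, the peptide galanin, had 1 and 4 UMIs in clock neurons against 561 and 1592 in other neurons, with log2 ratios of -5.63 and -4.56. Tac2 (neurokinin B) had 1 and 1 UMI against 373 and 533, and Tac1 (substance P) had 3 and 3 against 453 and 334. Ghrh, growth hormone-releasing hormone, had 0 in both against 75 and 198, and Th, the dopamine enzyme, 0 against 44 and 118. Of 11 arcuate peptide genes compared, 5 were called lower (Kiss1, Tac2, Ghrh, Gal, Trh) and none higher, beside 3.71% of all genes called lower. Of 18 other hypothalamic factors compared, 7 were called lower, among them Nkx2-1 (-1.50 and -2.10) and Isl1 (-1.71 and -1.48). Only 2 of the 18 had intervals below 0 in both libraries. Nkx2-1 had 5 and 1 UMIs in clock neurons with exactly 2 rule genes and 0 in those with at least 3. Dlx6, a GABAergic factor, was called higher at 1.45 and 1.05. Ncald, a calcium sensor, and the protocadherin Pcdh17 were lower at -2.28 and -2.12 for Ncald and -2.31 and -2.02 for Pcdh17. The rest of the 12 named were Tshb, Ccnd1, Cd9, Serpine2, Kcnip1 and S100a1. Tshb turned to 1.28 in Irx3/5dHet, from 1 UMI in clock neurons, without the cells with genes of other cell types. Tshb is a pituitary hormone gene, and Cd9 and Serpine2 are also made by glia.

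A few clock neurons carried arcuate peptide RNA in bulk. In each library 3 clock neurons held at least 10 UMIs of the 11 arcuate peptides, and they held 92.4% of the 499 such UMIs in WT and 95.9% of the 790 in Irx3/5dHet. All 6 had exactly 2 rule genes. One WT cell with Vip and Prok2 (17968 UMIs) held 66 of 69 Agrp and 105 of 107 Npy UMIs, and another with Vip and Vipr2 (14528 UMIs) held 245 of 290 Cartpt UMIs. In Irx3/5dHet, 2 cells held 191 and 162 of the 359 Pomc UMIs. Among the 59 and 19 clock neurons with at least 3 genes, none held 10 such UMIs, and all of them together held 13 and 10. Levels of Agrp, Npy, Cartpt and Pomc in clock neurons thus rest on single cells.

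Clock neurons made up a smaller share of neurons in the Irx3/5dHet library. They were 100 of 911 WT neurons (10.98%, 9.02 to 13.2) and 51 of 720 Irx3/5dHet neurons (7.08%, 5.32 to 9.21), a ratio of 0.645 (0.451 to 0.913). By number of genes, exactly 2 genes were found in 4.50% and 4.44% of neurons, at least 3 in 6.48% and 2.64%, and at least 4 in 3.51% and 1.11%. The ratio was 0.988 (0.602 to 1.61) for exactly 2 genes and 0.407 (0.229 to 0.693) for at least 3, and the difference between these ratios was not tested. Neurons as a whole made up 37.9% of WT and 48.5% of Irx3/5dHet cells, so clock neurons were 4.16% and 3.44% of all used cells, a ratio of 0.827 (0.578 to 1.17) whose interval includes 1.

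At other depths and gates the ratio stayed below 1, with intervals that did not all exclude it. With each neuron thinned to 1000 UMIs, 51 of 651 WT and 27 of 521 Irx3/5dHet neurons qualified (7.83% and 5.18%), a ratio of 0.662 (0.399 to 1.07), leaving out 260 and 199 shallower neurons. Among neurons with at least 500 genes the ratio was 0.710 (0.492 to 1.02). The share rests on 1 pool per genotype, and the amount of suprachiasmatic nucleus in each dissection was not measured.

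**Figure D4:**
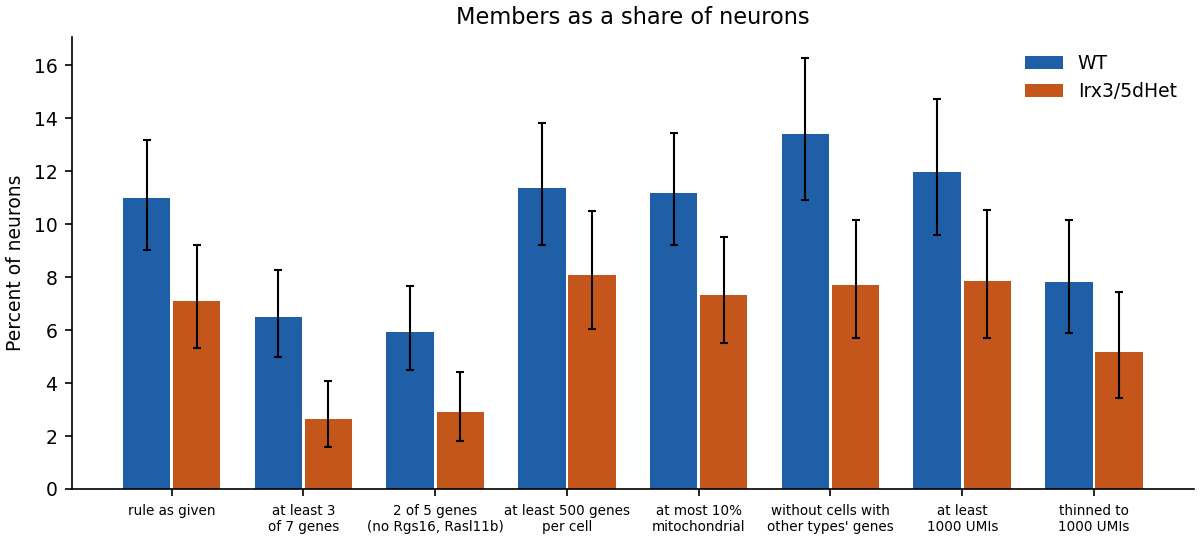
Bars give clock neurons as a percent of neurons under 8 rules, for WT (blue) and Irx3/5dHet (orange), with exact 95% counting intervals. The WT bar is taller under each rule, at 10.98% against 7.08% under the rule as given and 7.83% against 5.18% with cells thinned to 1000 UMIs.

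Clock neurons of the libraries were compared gene by gene. Their make-up differed, since 59 of 100 WT and 19 of 51 Irx3/5dHet clock neurons had at least 3 rule genes. Over 6854 genes, 9.69% were at least 2-fold higher and 12.5% at least 2-fold lower in Irx3/5dHet, with a median log2 ratio of 0.01. Of the 8 suprachiasmatic factors none reached 2-fold either way, and 8 genes are too few to tell this from the shares over all genes. Rora was at -0.01 (-0.43 to 0.40), Lhx1 at -0.24 (-0.97 to 0.42), Six6 at 0.25 (-0.34 to 0.81) and Six3 at -0.31 (-0.79 to 0.13). Zfhx3 was 210 CPM in WT and 351 CPM in Irx3/5dHet clock neurons, at 0.75 (0.14 to 1.34), and -0.30 in other neurons. Of the 8 clock repressors compared none reached 2-fold, and Nr1d1 was -0.49 (-1.18 to 0.13) in clock neurons beside -1.16 in other neurons. Avp was at -0.03 (-0.16 to 0.09), an interval that includes 0.

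The rule's own genes are given as a description. Vip was -1.40 (-1.61 to -1.19), the 1 of 7 past 2-fold, with 118 of the 222 Irx3/5dHet UMIs in 1 cell, and 3.14 in other neurons from 6 and 54 UMIs. Nms was -0.98 (-1.68 to -0.38) and Rgs16 -0.63 (-0.93 to -0.35) in clock neurons. Prok2 (-0.06), Rasl11b (-0.14), Vipr2 (-0.55) and Prokr2 (0.01) had intervals that include 0. Cck, a peptide gene of part of the nucleus, was 500 CPM (131 UMIs in 15 cells) in WT and 168 CPM (21 UMIs in 6 cells) in Irx3/5dHet, at -1.55 (-2.32 to -0.91), and -0.75 in other neurons. Penk, which encodes enkephalin, was 176 and 31.9 CPM, at -2.31 (-4.39 to -1.01), but 23 of its 46 WT UMIs lay in 1 cell, and it was -0.08 in other neurons. Scg2 was -0.40 and Vgf 0.75. Sst was -0.97, with 509 of 522 WT UMIs in 1 cell.

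Of all genes, 5.44% were higher and 5.92% lower in Irx3/5dHet clock neurons with an interval excluding equality, and 12 in each direction were named. Most of them differed the same way in other neurons. Of the 12 named as higher in Irx3/5dHet, 8 were also higher in other neurons with an interval excluding 0, as were 9 of the 12 named as lower. Atp5g1, a subunit of ATP synthase, was 1.91 in clock neurons and 2.42 in other neurons, and the translation factor Eef1a1 1.27 and 1.41. Sez6, a synaptic membrane protein, was -2.50 and -2.43, and the transcript AL591207.1 was -2.06 and -2.25. These genes differed alike in both kinds of neuron.

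Ublcp1, Atmin, Syap1 and Cdkn1b had intervals that include 0 in other neurons. Ublcp1, a proteasome phosphatase, was 2.94 (1.43 to 5.10) in clock neurons from 16 against 4 UMIs and 0.03 in other neurons. Atmin, a zinc finger factor, was 2.65 (1.23 to 4.55) and 0.19. Syap1, a synapse-associated protein, was -3.62 from 1 against 38 UMIs, beside -0.15, and the cell cycle inhibitor Cdkn1b was -1.51 (-2.70 to -0.59) beside -0.26. Calb1 (calbindin), found in 23 WT and 21 Irx3/5dHet clock neurons, was 1.55 (0.97 to 2.13) beside 0.34 (0.16 to 0.52). It was -0.021 among clock neurons with at least 3 genes. Npy1r, a receptor for neuropeptide Y, was 3.47 beside 1.08 (0.55 to 1.65), from 3 UMIs in WT and 18 in Irx3/5dHet. Of the 18, 8 lay in 1 cell and 6 in another. The cell with 8, of 8394 UMIs and with exactly 2 rule genes, also held 191 Pomc UMIs. The difference between clock neurons and other neurons was not tested for any of these. The remaining named genes were Hspbp1, Eif1a, Tmem91, Pgk1 and Asb4 (higher, but Asb4 was -0.87 among clock neurons with at least 3 genes, and 1 cell held 9 of its 18 Irx3/5dHet UMIs) and AC159139.1, CT030181.1, Hdac1, Ppfibp1, AC151846.1 and AC129016.2 (lower).

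**Figure D5:**
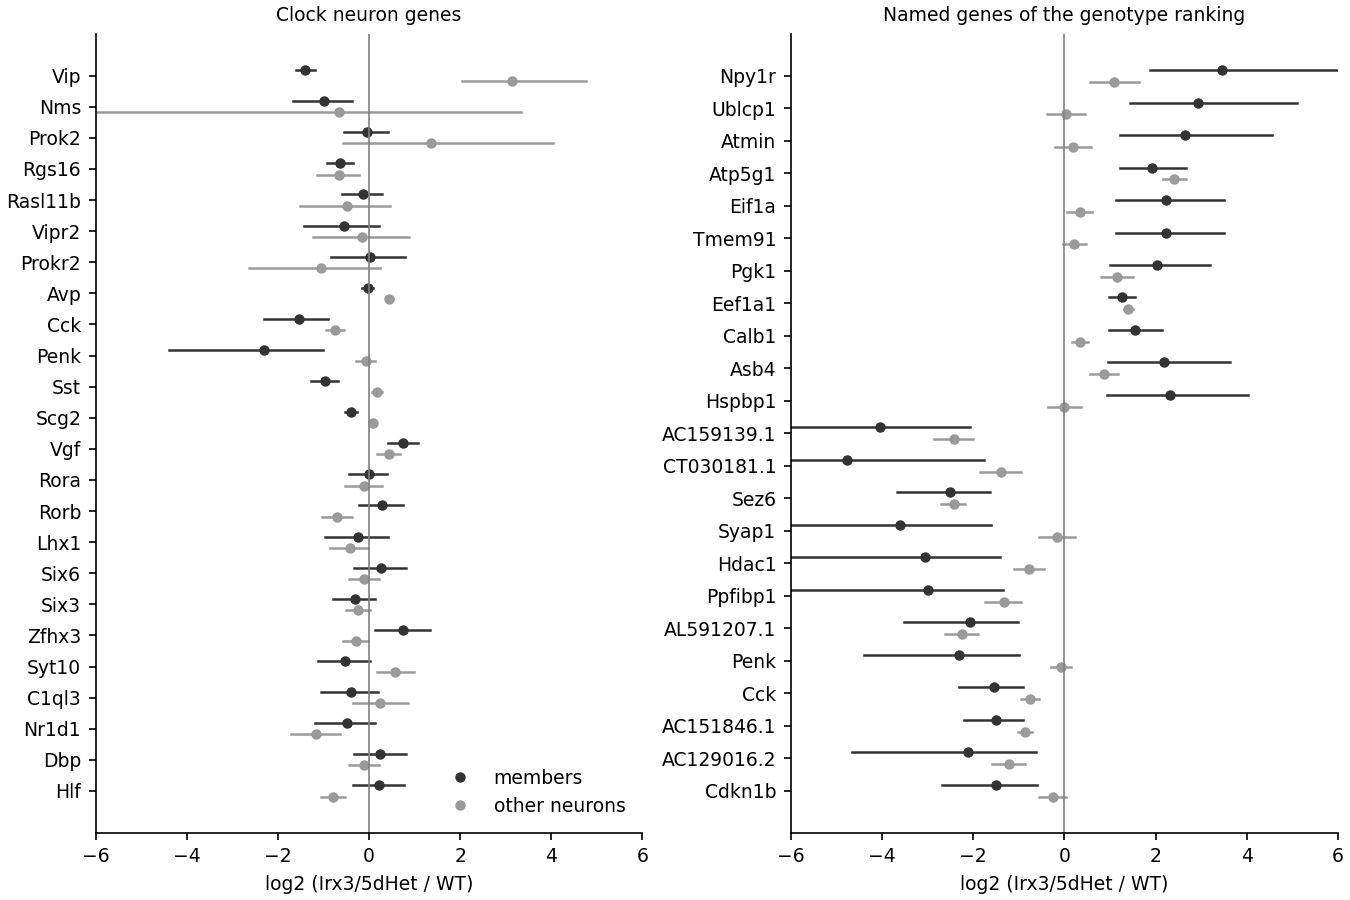
Points are the log2 ratio of Irx3/5dHet over WT summed level in clock neurons (black) and in other neurons (grey), with exact 95% counting intervals cut at the axis limits. The left panel holds genes of the nucleus, where Rora, Lhx1, Six6 and Six3 lie near 0, and the right panel the named genes, where Atp5g1, Eef1a1 and Sez6 move alike in both kinds of neuron.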

How the data were processed

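The deposited tables, 1 per library, give whole-number UMI counts per gene and cell barcode, as made by the authors. Their merged table of 4297 cells, also deposited, gives log values that match a natural log of 1 plus UMIs scaled to 10000 per cell, and was used for 1 alternative (150 of the 151 clock neurons are in it). Among tools, the submitters' processing notes list STAR 2.6.0b, Seurat 3, Picard and bcl2fastq, with build mm10. Strand setting and annotation: not given in the sources used here.

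UMIs were summed per library and group of cells and scaled to 1000000 (CPM). Log2 ratios use sums plus 0.5. Ratios have exact conditional binomial intervals, levels Poisson and shares Clopper-Pearson intervals (scipy 1.17.1), all at 95% and for counting error only. UMIs of 1 cell are not independent. A gene needed 10 UMIs to be compared.

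Named genes needed an interval excluding equality. For clock against other neurons it had to do so in both libraries, with at least 20 UMIs in clock neurons and 10% of them positive in 1 library (higher genes) or 20 UMIs expected from other neurons (lower genes), and the 12 largest each way by the smaller ratio were taken. Between libraries a gene needed 20 UMIs, 5 cells and no cell with over 50% of the UMIs of the higher library, and the 12 with the bound farthest from equality each way were taken. Mitochondrial, ribosomal, predicted and sex-linked names were left out. Some genes, 1 of the named ones among them, are not reported here.

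Scrublet (scanpy 1.11.5) called 17 of 3889 cells doublets (0.437%, against 5% assumed), so it did not work here and doublets may remain. The interval code was tested on simulated counts. The members and lists were chosen with earlier results of these data known.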

Additional observations from a re-analysis of the deposited data

Results flagged for a closer look

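For 4 listed genes the log2 ratio of clock over other neurons had opposite signs in the libraries, each with an interval excluding 0, and the difference itself was not tested. The ratio in Irx3/5dHet minus that in WT was -6.11 for Agrp, 5.17 for Pomc, -4.04 for Oxt and 0.38 for Gnas. A single WT cell held 66 of the 69 Agrp UMIs, and 2 Irx3/5dHet cells held 191 and 162 of 359 Pomc UMIs. Oxt was found in 28 and 14 clock neurons with at most 15 and 5 UMIs, while in other neurons it was 215 and 2247 CPM. Cells outside the neuronal gate with at least 2 of the 7 genes, which enter no comparison, made up 0.402% of such WT and 0.524% of such Irx3/5dHet cells, above the limits that a count of 0 would allow.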

How the results depend on the processing

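No paired analysis was possible because each genotype is 1 pooled library. The smaller share in Irx3/5dHet kept its direction under the 8 other cell rules and the 2 other thinnings. Requiring 3 genes gave 6.48% and 2.64% (ratio 0.407), dropping Rgs16 and Rasl11b from the rule gave 5.93% and 2.92%, leaving out cells with genes of other cell types gave 13.4% in WT, and thinning to 500 UMIs gave 5.66% in WT. Genes called higher in clock neurons went from 277 to 710 with 3 genes required, 116 at 30 UMIs or more and 2709 with no minimum, and genes called lower from 470 to 206 at 30 UMIs and 989 with means over cells. Genes higher in Irx3/5dHet went from 664 to 97 at 30 UMIs and 3878 with no minimum, and lower ones from 860 to 196 and 3190, and to 516 with 3 genes required. Counts at 30 UMIs and with no minimum differ because other genes are compared, and the cause of the rest was not tested. Of 936 values of named genes over 13 settings, 890 stayed within their interval, 42 left it and 4 changed sign: Asb4 (-0.87) and Calb1 (-0.021) between libraries with 3 genes required, Egr4 (-0.41) in Irx3/5dHet without Rgs16 and Rasl11b in the rule, and Tshb (1.28) in Irx3/5dHet without cells with genes of other types. The 51 Irx3/5dHet clock neurons limit all values of that library.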
